A study of Mus musculus with 2 samples.

Results

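Complement was followed through 9 genes in dorsal striatum RNA from mice that had taken cocaine: the C1q subunits C1qa, C1qb and C1qc, the opsonin precursors C3 and C4b, the anaphylatoxin receptors C3ar1 and C5ar1, and the integrin subunits Itgam and Itgb2, which together form complement receptor 3. They were chosen by name out of 32531 genes listed in the deposited counts, with their counts in these same libraries already known, so the ratios below describe the libraries and are given without a test. All 9 genes were listed in the deposited counts.

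The mice carried the Drd1-TRAP transgene of line CP73, a bacterial artificial chromosome that drives an EGFP-tagged ribosomal protein, Rpl10a, from the Drd1 promoter, on a background of FVB/N-Swiss Webster crossed to C57BL/6 for 9 generations or more. All had self-administered cocaine intravenously in long-access sessions. One group escalated its intake and the other, the nonescalating group, did not. Each group gave 1 library of total RNA from homogenised dorsal striatum, the input taken before any purification of tagged ribosomes, so RNA of every cell type in the dissection was present. Neither group was free of cocaine or of the transgene, and the sources used here do not give the age, the dose or how many animals were pooled.

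Complement is a cascade of plasma and tissue proteins that marks surfaces for removal. C1q, built from A, B and C chains, recognises a target and starts the classical pathway, which cleaves C4 and then C3; the fragments left on the target are bound by phagocytes through complement receptor 3, and the small released fragments act on C3ar1 and C5ar1. In brain, microglia are the main source of C1q and carry these receptors, astrocytes can make C3 and C4, and C1q, C3 and complement receptor 3 are known for the removal of synapses during development.

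The libraries held 9548358 (escalating) and 9376097 (nonescalating) reads assigned to genes, which were 53.8% (exact 95% binomial interval 53.8 to 53.9) and 55.3% (55.3 to 55.3) of the reads listed. Reads that fell in more than 1 gene made up 8.06% and 18.9%. Levels are in CPM, counts relative to a common size of library, with sizes scaled by TMM, a method that centres the ratios of most genes on 1. All 8 markers of striatal projection neurons were present, the fewest counts being those of Tac1 (1013 and 808). With 1 library per group there is no replicate check and no p-value. Intervals are 95% counting intervals, exact Clopper-Pearson, and cover counting error only. Genes whose counts summed to 50 or more were tested, and one was called when its ratio was 1.5-fold or more and its interval excluded 1.

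Promoter sequences are shown first for 5 members. Of these, C1qb, C1qc, C3ar1 and Itgam were at least 10-fold lower in the escalating library, and C3 was not. The letters are from RefSeq on build GRCm38.p6, the sequence of mm10, which held 6 of the 9 members; each runs 5′ to 3′ on the gene's own strand and stops at the transcription start. Only bases before the starts of both RefSeq and GENCODE M21 are printed. Capitals mark matches, on either strand, to any of 6 motifs named below. The windows are chr4:136886201-136886450 (minus strand) for C1qb, chr4:136893066-136893164 (minus) for C1qc, chr6:122856162-122856407 (minus) for C3ar1, chr7:128062390-128062639 (plus) for Itgam and chr17:57228137-57228386 (minus) for C3.
C1qb: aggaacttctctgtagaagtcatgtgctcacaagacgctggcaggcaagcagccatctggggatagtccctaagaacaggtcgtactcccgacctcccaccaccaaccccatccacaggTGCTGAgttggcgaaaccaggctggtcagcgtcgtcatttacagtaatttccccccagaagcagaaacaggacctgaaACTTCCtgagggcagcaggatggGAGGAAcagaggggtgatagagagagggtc
C1qc: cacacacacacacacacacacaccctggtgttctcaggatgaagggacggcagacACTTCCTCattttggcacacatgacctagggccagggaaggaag
C3ar1: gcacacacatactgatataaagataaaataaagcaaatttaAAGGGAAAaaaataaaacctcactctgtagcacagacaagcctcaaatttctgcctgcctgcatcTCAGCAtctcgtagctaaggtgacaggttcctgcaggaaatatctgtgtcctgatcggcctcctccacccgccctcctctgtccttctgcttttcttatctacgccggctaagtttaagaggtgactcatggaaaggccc
Itgam: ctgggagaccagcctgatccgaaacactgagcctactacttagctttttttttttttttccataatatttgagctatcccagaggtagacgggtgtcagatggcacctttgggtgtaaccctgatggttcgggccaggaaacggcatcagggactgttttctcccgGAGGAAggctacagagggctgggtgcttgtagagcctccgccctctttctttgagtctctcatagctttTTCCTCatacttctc
C3: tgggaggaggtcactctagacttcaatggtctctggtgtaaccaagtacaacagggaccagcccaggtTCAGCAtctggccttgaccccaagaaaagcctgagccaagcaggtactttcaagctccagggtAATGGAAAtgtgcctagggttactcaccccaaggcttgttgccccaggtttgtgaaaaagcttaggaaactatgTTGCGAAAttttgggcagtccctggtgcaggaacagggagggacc

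The motifs searched were GAGGAA, the core of sites of the myeloid factor PU.1, GGAAGT (ETS factors), AANNGAAA (interferon regulatory factors), TTCNNNGAA (STAT factors), TTGCNNAA (C/EBP factors) and TGCTGA (a half-site of MAF factors), in the 250 bases before each RefSeq start. Matches to GAGGAA and GGAAGT can share letters, as they do in C1qc. GAGGAA occurred once in C1qb, once in C1qc and at 2 positions in Itgam, with no match in C3ar1, C5ar1 or C3; 23.3% of 32851 promoters of this length held it. GGAAGT occurred in C1qb, C1qc and C5ar1 (19.7% of promoters), and TGCTGA in C1qb, C3ar1, C5ar1 and C3 (16.1%). The C5ar1 matches lay inside the gene as annotated in GENCODE M21, since only the first 48 bases of its window precede both starts. TTGCNNAA was matched in C3 alone among the 6 members searched, 45 bases before the start (9.56%). AANNGAAA was matched once each in C1qc, C3ar1 and C3 (21.3%), in C1qc at 108 bases before the RefSeq start and outside the bases printed. TTCNNNGAA (7.02%) had no match in these windows. These matches describe letters in short windows and are not evidence of binding.

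The C1q subunit genes lie side by side on chromosome 4 (136880129 to 136898803, mm10), all on the minus strand. By rising coordinate the order is C1qb, C1qc, C1qa, and the 3 genes together span 18.7 kb. C1qa, the A chain, was counted 2 times in the escalating library and 156 times in the nonescalating one, or at 0.185 and 18.9 CPM. C1qb, the B chain, had 62 and 1192 counts (5.73 and 144 CPM). C1qc, the C chain, had 22 and 901 counts (2.03 and 109 CPM). Every subunit was far lower in the escalating library, and none had overlapping CPM intervals between the libraries. The ratios were 102-fold lower for C1qa (27.8 to 849.8), 25.1-fold for C1qb (19.5 to 33.01) and 53.6-fold for C1qc (35.2 to 85.9). Their summed counts were 86 and 2249, which was 34.2-fold lower (27.6 to 42.9).

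The subunits of this one protein were not lowered by equal amounts. A ratio between the ratios of 2 genes does not depend on how the libraries are scaled, and its interval is the exact conditional one for the 4 counts. The ratio of C1qb was 2.13 times that of C1qc (1.28 to 3.67) and 4.05 times that of C1qa (1.06 to 34.6), the last resting on 2 counts. For C1qa over C1qb, an alternative interval from log odds included no difference (0.0852 to 1.09). C1qa and C1qc could not be told apart at this depth, with a ratio of 0.525 (0.0593 to 2.17). C1qb thus made up 53.0% of C1q counts in the nonescalating library (50.9 to 55.1) and 72.1% in the escalating library (61.4 to 81.2), while the share of C1qc was 40.1% (38.0 to 42.1) and 25.6% (16.8 to 36.1). The share of C1qa was 6.94% (5.92 to 8.07) and 2.33% (0.283 to 8.15), with intervals that overlapped. None of the 50-base windows of the C1q transcripts occurred in a transcript of another gene in GENCODE M21, and no annotated gene overlapped any of the 3.

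**Figure D1:**
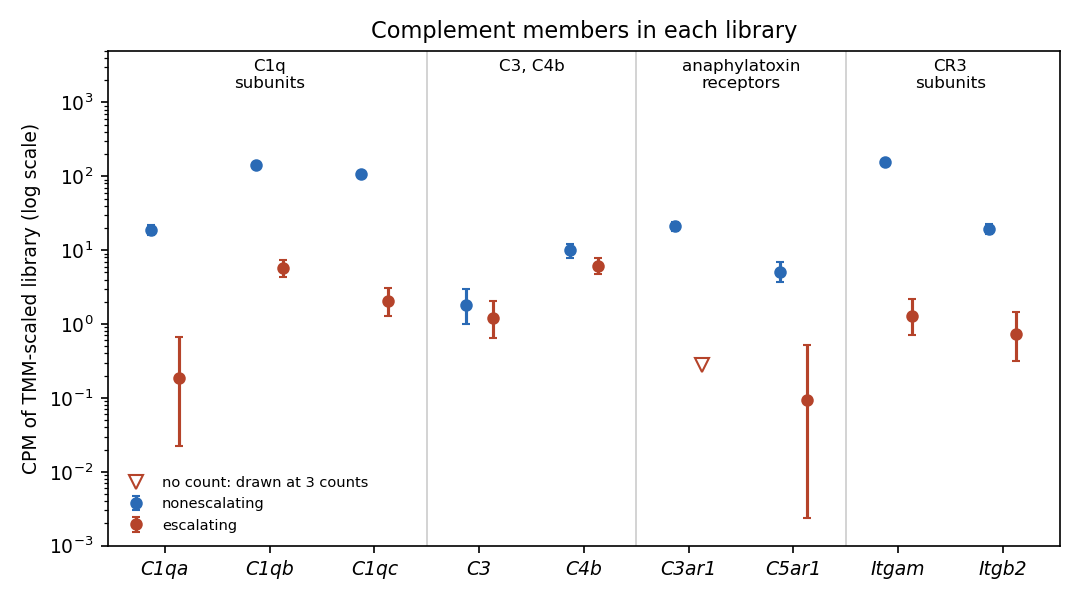
CPM of the TMM-scaled library (log axis) for each member in the nonescalating (blue) and escalating (red) library, 1 library each, with bars for the exact 95% counting interval; the open triangle marks C3ar1, with no count, at 3 counts. C3 and C4b have overlapping or nearly touching intervals, while C1qa, C1qb, C1qc, C3ar1, C5ar1, Itgam and Itgb2 have intervals that do not overlap.

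The receptor genes were lower as well. C3ar1 (chromosome 6, 122847138 to 122856161), the receptor of the C3a fragment, was not counted in the escalating library and was counted 173 times (20.9 CPM) in the nonescalating one. A count of 0 allows up to 3 counts, or 0.277 CPM, and against that floor C3ar1 was at least 75.4-fold lower; the bound of its interval nearest to no difference, which also covers the counting error of the 173 counts, was 60.7-fold. C5ar1 (chromosome 7, 16246743 to 16259540), the receptor of C5a, had 1 and 42 counts, a ratio 54.9-fold lower (9.33 to 2221). With 43 counts in all it stayed under the minimum of 50 and was not open to a call. Both anaphylatoxin receptors were therefore at or near the counting floor in the escalating library.

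Itgam, the alpha subunit CD11b of complement receptor 3 (chromosome 7, 128062640 to 128118491), had 14 and 1276 counts, or 1.29 and 154 CPM, and was 119-fold lower (70.8 to 219). Itgb2, the beta subunit CD18 (chromosome 10, 77530252 to 77565708), had 8 and 159 counts, or 0.739 and 19.2 CPM, and was 26.0-fold lower (12.9 to 61.3). The subunits of this receptor also differed from each other: the ratio of Itgam was 4.58 times lower than that of Itgb2 (1.64 to 11.9). CD18 pairs with other alpha subunits as well, of which Itgal had 18 and 18 counts, Itgax 2 and 0, and Itgad 4 and 2. Of the 50-base windows of Itgam, 72.4% also occur in Gm49368, a gene model that runs from Itgam into its neighbour and is not among the symbols counted, and 1.16% of those of Itgb2 occur in Gm14699.

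C3 and C4b stood apart from the other members in size. C3 (chromosome 17, 57203970 to 57228136), the component on which all complement pathways converge, had 13 and 15 counts, or 1.20 and 1.81 CPM. Its log2 ratio was -0.57 with an interval of -1.78 to 0.58, so no difference was detectable at this depth, and its 28 counts were under the minimum for a call. C4b (chromosome 17, 34728380 to 34743882), the classical pathway component cleaved just before C3, had 66 and 82 counts, or 6.10 and 9.91 CPM. It was called 1.62-fold lower (1.16 to 2.28), but not when counts were scaled to total reads (log2 ratio -0.34). C4b has a near copy, C4a, 65.2 kb away, which held 35.2% of its 50-base windows and had 4 and 3 counts. Reads that matched both copies would not have been unique, so the count of C4b is uncertain in both libraries.

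The gap between C4b and the C1q and receptor genes was wider than counting error. Relative to C1qb, the ratio of C4b was 15.4 times higher (10.01 to 23.8), relative to C1qc 32.7 times (18.8 to 58.8), and relative to Itgam 72.7 times (38.5 to 146). For C3 the values were 16.6 times relative to C1qb (6.92 to 39.2) and 77.3 times relative to Itgam (28.4 to 215). C3 and C4b could not be told apart from each other (1.08, 0.438 to 2.62). Since each is a ratio within these 2 libraries, none depends on the scaling, and none speaks to variation between animals.

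Of the 9 members, 7 had at least 50 counts and all 7 were called lower, beside 17.2% of the 12213 genes with that many counts; 6 of the 7 were lower by at least 10-fold, beside 0.868%. With total-read scaling 6 of the 7 were called lower, beside 9.41% of genes lower and 31.7% higher. The 7 passed the minimum through the nonescalating library, where each had over 50 counts, while 2 did so in the escalating library. Nothing is read from these counts, because the members were picked with the ratios known. The median log2 ratio of the 7 was -5.71, unchanged with C3ar1 placed at its floor, beside 0.02 over all genes with at least 50 counts. Ordered from the lowest ratio among those 12213 genes, C3ar1 was at place 2, Itgam 8, C1qa 11, C1qc 19, C1qb 42, Itgb2 43 and C4b 1782. These low places were not particular to complement genes. The microglia markers described below ran from place 1 (P2ry13) to 318 (Sall1), with Gpr34 at 3 and Trem2 at 5.

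**Figure D2:**
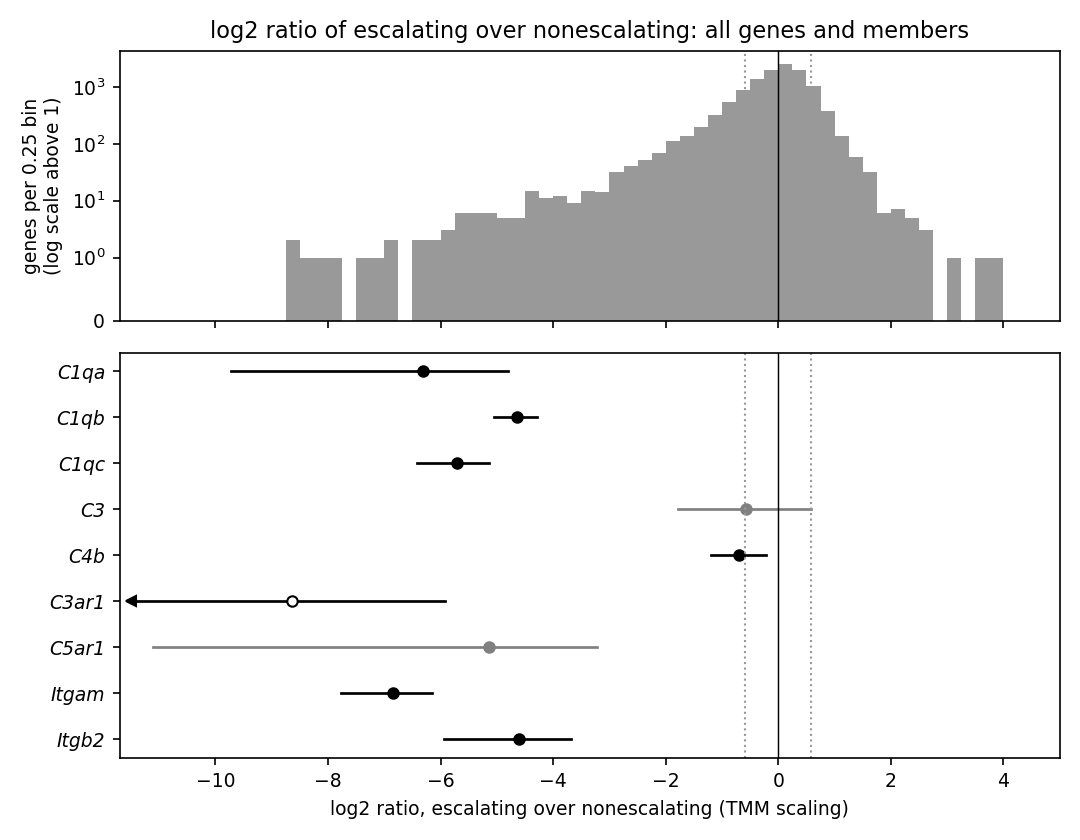
Top, number of genes per bin of log2 ratio (escalating over nonescalating, TMM scaling; vertical axis logarithmic above 1) for the 12213 genes with at least 50 counts; bottom, each member's log2 ratio with its exact 95% counting interval, in grey for C3 and C5ar1, which had fewer than 50 counts. The open circle of C3ar1 uses a pseudocount of 0.5 and its arrow marks an interval without a lower bound; dotted lines are at 1.5-fold, and C4b lies near the bulk of genes while the other called members lie in its lower tail.

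The order of the members by level changed between the libraries. On a scale of CPM per kilobase of merged exons, which allows genes to be compared, C1qb led the nonescalating library at 132, followed by C1qc at 56.4, Itgam at 30.7 and C1qa at 18.1, with intervals that did not overlap between neighbours. Itgb2 (6.30) and C3ar1 (4.86) had overlapping intervals, as did C5ar1 (1.98) and C4b (1.74), and C3 was last at 0.353. In the escalating library C1qb still led, at 5.27 CPM per kilobase, but C4b came next at 1.07, level with C1qc at 1.05. Itgam (0.258), Itgb2 (0.242), C3 (0.234), C1qa (0.178) and C5ar1 (0.0360) followed, each with an interval that overlapped that of its neighbour. The level of C1qc depends on the length used. With the longest transcript it was 90.5 and 1.69 CPM per kilobase, and C1qc then came before C4b in the escalating library.

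**Figure D3:**
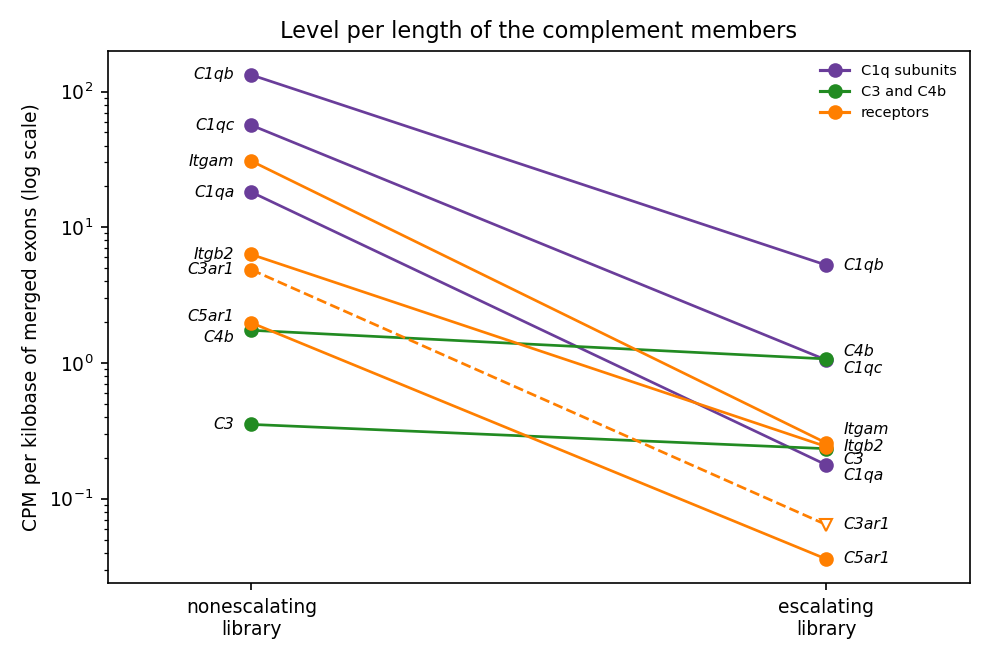
CPM per kilobase of merged exons (log axis) of the members in each library, with 1 line per gene; the open triangle and dashed line place C3ar1 at 3 counts in the escalating library. C4b moves from place 8 to place 2 since the C1q and receptor genes drop more steeply than C3 and C4b.

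Microglial markers were lower along with the C1q and receptor genes, and by more than C3 and C4b. All 20 genes of a microglia list were called lower, 17 of them by at least 10-fold, beside 17.2% and 0.868% of all genes tested. Their median log2 ratio was -5.47. Their summed level was 57.0 CPM (escalating) against 1689 CPM (nonescalating), a 29.6-fold lower value (27.3 to 32.2). Trem2 and Gpr34 were at 0 counts in the escalating library, while Cx3cr1, the fractalkine receptor, had 42 and 1371 counts. The genes of that list lower by less than 10-fold were Aif1, Sall1 and Cd68, at 4.09-fold, 3.96-fold and 6.12-fold lower. In bulk tissue, fewer microglia and less of these RNAs per microglial cell cannot be told apart. With 1 library per group, neither can be told apart from a difference in dissection, RNA preparation or library.

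Set against the microglia sum, the C1q subunits together differed by less than counting error, with a ratio of ratios of 0.866 (0.680 to 1.09). C1qb (1.18, 0.886 to 1.54) and Itgb2 (1.14, 0.481 to 2.32) also kept pace with it within counting error. Itgam was lower than the sum by a further 4.02 times (2.37 to 7.43) and C1qc by a further 1.81 times (1.18 to 2.92). Single markers of the microglia list had log2 ratios from -8.75 to -1.98. Itgam (-6.84) and C1qc (-5.71) lay within that range. For C3ar1, which had no count, the bound of the interval nearest to no difference was a further 2.04 times lower. An alternative interval from log odds included no difference for C3ar1 (0.00406 to 1.05). C4b was 18.2 times higher relative to the sum (12.8 to 25.8), and C3 was 19.6 times higher (8.55 to 44.4).

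Other cell types differed by less. All 12 astrocyte markers were called lower, with a median log2 ratio of -1.83 (range -3.22 to -0.79), as were 6 of 10 oligodendrocyte markers (median -0.74) and 8 of 9 endothelial markers with at least 50 counts (median -0.80). Among all genes tested, 17.2% were called lower. Total-read scaling raised the median log2 ratio of all genes by 0.36. Calls near 1.5-fold, such as Slco1a4 (1.55-fold lower) and Mog (1.71-fold lower), therefore depend on the scaling. Of 10 neuronal markers none was called lower and 1 higher (median 0.25). Of 8 listed monocyte and neutrophil markers, including Ccr2, S100a8 and S100a9, none had more than 2 counts in either library. The part of any of these cell types in the levels of the members was not tested.

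**Figure D4:**
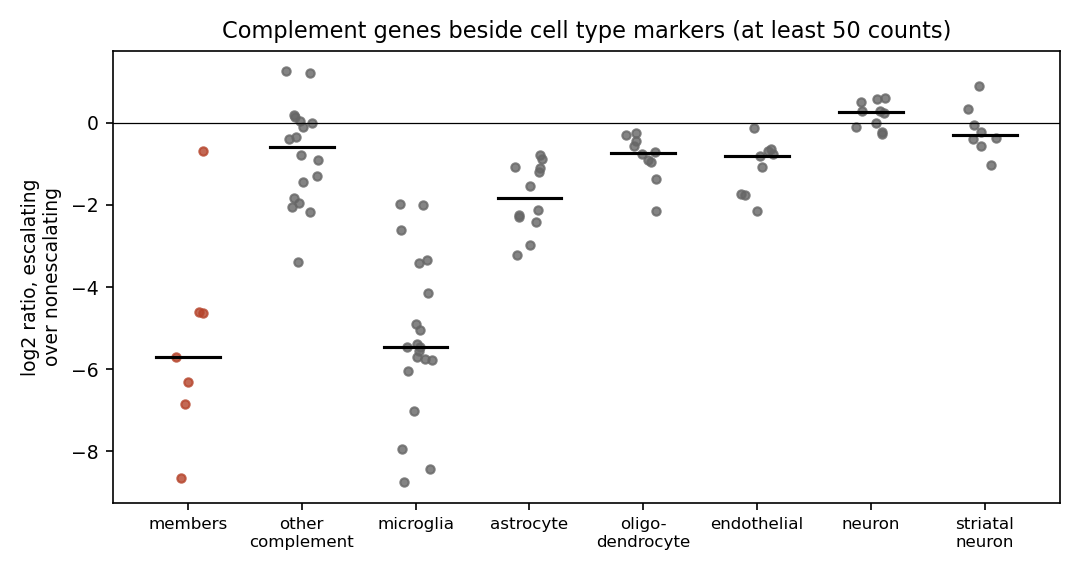
log2 ratio of escalating over nonescalating (TMM scaling) for genes with at least 50 counts, as 1 point per gene with the list's median as a line: the complement members, the other complement genes and 6 marker lists. The members and the microglia list share the lowest medians (-5.71 and -5.47). C4b is the only member drawn near 0, as C3 had fewer than 50 counts and is not drawn.

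The rest of the complement system did not share one direction. Of 55 other complement genes listed, 18 had at least 50 counts; 9 of these were called lower and 2 higher, beside 17.2% lower and 9.39% higher among all genes tested, and their median log2 ratio was -0.59. None of the 6 classical proteases and none of the 7 terminal components reached 50 counts: C1ra had 1 and 0 counts, C1s1 1 and 1, C2 16 and 5, and C7 13 and 5. Mbl1, Mbl2, C6, C8b, C9 and Cfd had no count in either library.

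All 3 measured soluble regulators were called lower, Clu and Vtn among them, beside 17.2% of all genes tested. Clu, clusterin, an inhibitor of the terminal complex that astrocytes express strongly, (1266 and 3984 counts) was 4.12-fold lower (3.86 to 4.39). Vtn, vitronectin, another terminal inhibitor, was 3.60-fold lower (2.77 to 4.73). These values stand beside the astrocyte median of -1.83, the endothelial median of -0.80 and the microglia median of -5.47. Which cells the RNA of Clu and Vtn came from was not tested.

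Among membrane regulators 5 of the 7 measured were not called, while 1 was called lower and 1 higher. Over all genes tested, 17.2% were called lower and 9.39% higher. Csmd1, a large neuronal inhibitor of C3 activation, (1247 and 958 counts) had a log2 ratio of -0.01. Its relatives Csmd2 and Csmd3 had log2 ratios of 0.15 and 0.03, Susd4, which binds C1q and inhibits the classical pathway, -0.40, and Cr1l, the rodent regulator Crry, -0.36. With total-read scaling these became 0.35 for Csmd1, 0.51 for Csmd2, 0.39 for Csmd3, -0.04 for Susd4 and about 0 for Cr1l, and none was called. Cd59a, which blocks the membrane attack complex, was called 2.75-fold lower (1.86 to 4.11). Its paralog Cd59b, with 32 and 10 counts, was under the minimum for a call. Cd46, a cofactor for C3b cleavage, was 2.35-fold higher (1.23 to 4.79), but it overlaps other gene models on both strands and whether counting used the strand is not stated in the sources used here.

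**Figure D5:**
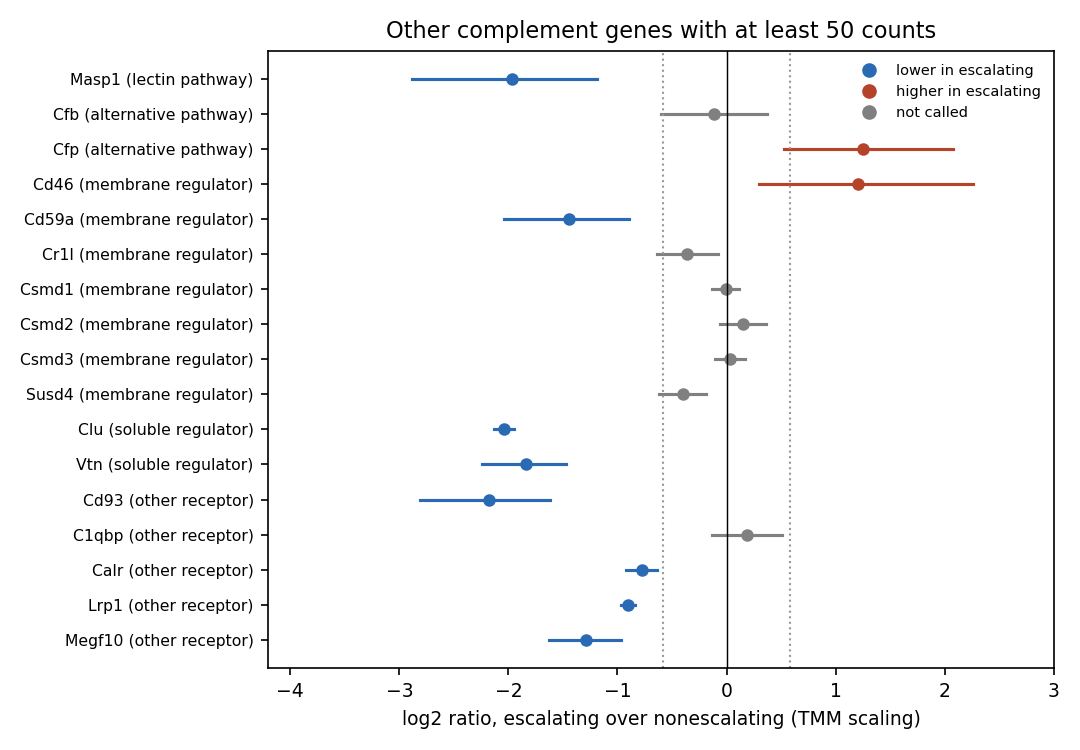
log2 ratio of escalating over nonescalating (TMM scaling) with exact 95% counting intervals for 17 of the 18 other complement genes with at least 50 counts, labelled with their role; blue was called lower, red higher and grey not called, and dotted lines are at 1.5-fold. Clu and Vtn sit at -2.04 and -1.84, and Csmd1, Csmd2 and Csmd3 lie between -0.01 and 0.15.

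In the alternative pathway, Cfp, properdin, which stabilises its C3 convertase, (63 and 20 counts) was higher in the escalating library by 2.41-fold (1.44 to 4.21). Cfb, factor B, the protease of that convertase, (82 and 68 counts) was not called, with a log2 ratio of -0.12; a read-through model, Gm20547, overlaps it on the same strand. Masp1, a protease of the lectin pathway, was 4.0-fold lower (2.28 to 7.38), and it overlaps Rtp4 on the opposite strand. Thus Cfp differed in direction from the C1q genes and Masp1.

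Of further receptors and binding proteins, 4 of the 5 measured were called lower, beside 17.2% of all genes tested. C5ar2, the second C5a receptor, whose gene lies 2.59 kb from C5ar1, had no count and 28 counts, at least 12.2-fold lower against the floor of 3 counts (the nearest bound of its interval was 9.29-fold), with too few counts for a call. Cd93, an endothelial and myeloid surface protein, was 4.58-fold lower (3.07 to 7.01), and Megf10, an engulfment receptor of astrocytes, 2.45-fold lower (1.96 to 3.09). Lrp1 and Calr, reported to act together in the uptake of C1q-marked targets, were 1.87-fold (1.79 to 1.95) and 1.72-fold lower (1.56 to 1.89). Neither was called with total-read scaling, where the log2 ratios were -0.54 and -0.42. C1qbp, a mostly mitochondrial protein named for binding C1q, (207 and 139 counts) was not called, with a log2 ratio of 0.19.

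With 2 libraries each gene has a single ratio, so likeness to the members was measured as the distance from the median log2 ratio of the 8 members with a count in each library, -4.89. Among the 5 closest genes with at least 100 counts were Fcgr3 (-4.90), an IgG receptor, Unc93b1 (-4.85), which escorts Toll-like receptors, Laptm5 (-5.04), a lysosomal membrane protein, and Selplg (-4.70), a selectin ligand. Laptm5 is also in the microglia list.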

How the data were processed

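Per the submitters' processing notes, reads were aligned with STAR 2.0.0e to mm10 and counted per gene with HTSeq (version, strand setting and annotation: not given in the sources used here). Raw counts, with no normalisation, were deposited under gene symbols. Reads given to no gene stayed out of library sizes; in the escalating and nonescalating library 28.6% and 18.1% lay in no gene and 9.53% and 7.78% aligned to more than 1 place. Library sizes were scaled with TMM factors (1.13 and 0.882) from edgeR 4.0.16 in R 4.3.3. Log2 ratios used a pseudocount of 0.5, and folds used none. Folds against a count of 0 used a floor of 3 counts, equal to 0.277 CPM (escalating) and 0.363 CPM (nonescalating). Each group's library came from its title and neither was left out. With 1 library per group no test between groups was made.

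Members, gene lists and rules were chosen with earlier results of these data known. The text names all members, other complement genes with at least 50 counts, the 5 genes closest to the members' median ratio, and a few markers and low-count genes picked after their values were seen. The values of a few genes that these rules name are not reported here. Lengths, positions and overlaps came from GENCODE M21 (mm10), which matched 98.9% of the 181 listed symbols found in the counts. Intervals and calls were tested on simulated counts with counting error only. That simulation held no variation between animals or libraries and so says nothing about it. Alternatives changed the scaling (to total reads with and without the 10 most abundant genes, or to size factors from DESeq2 1.42.0), pseudocount, filter, fold threshold, transcript length and interval method. Other steps used Python 3.11.15 with scipy 1.17.1, pandas 2.3.3, numpy 2.4.6 and, for plots, matplotlib 3.10.9.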

Additional observations from a re-analysis of the deposited data

How the results depend on the processing

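The log2 ratios of the 9 members were negative in all 36 combinations of member and alternative scaling or pseudocount. Of these, 32 lay within the counting interval of the main value, and the exceptions were C1qb with total reads (-4.28) and C1qa, C3ar1 and C5ar1 with a pseudocount of 5 (-4.77, -5.35 and -3.18). The count of members called lower was between 6 and 8: C4b was not called with total reads or at a threshold of 2-fold, and C5ar1 was added when genes with 10 or more counts were allowed. Other complement genes called lower numbered 7 to 12 and those called higher 2 to 4, the value of 4 coming from no filter beyond 1 count, which tested 42 of them in place of 18. Over all genes, 2097 were called lower and 1147 higher with TMM, 1149 and 3868 with total reads, 1725 and 1732 with the 10 most abundant genes left out, and 1096 and 253 at 2-fold. The median log2 ratio of all genes was 0.02 with TMM, 0.38 with total reads and 0.13 with those 10 genes left out, a shift of 0.36 from TMM to total reads. All 29 ratios between the ratios of genes or sums stayed within their intervals with the log odds method. The log odds intervals themselves included no difference for C1qa over C1qb (0.0852 to 1.09) and for C3ar1 over the microglia sum (0.00406 to 1.05). The exact intervals of both did not. Depth limits C1qa, C3ar1, C5ar1 and C3 most. No paired analysis was possible because each group has 1 library.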

Other observations

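Proteins that share the C1q head domain but belong to other families had ratios closer to 1 than the 34.2-fold lower sum of the C1q subunits. Of 16 such genes listed, 3 had at least 50 counts. Cbln4, a secreted organiser of synapses, had 35 and 57 counts in the escalating and nonescalating library and was 2.13-fold lower (1.37 to 3.34). C1ql1 (26 and 30 counts) and C1qtnf4 (58 and 66) had log2 ratios of -0.58 and -0.57 that were not called.

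Of 6 markers of macrophages at the borders of the brain 1 had at least 50 counts and it was not called, beside 20 of 20 called lower in the microglia list. Their summed counts were 188 and 115, of which Cd163 alone held 171 and 101, with a ratio 1.29-fold higher (1.01 to 1.67) that was not called. Mrc1 had 7 and 7 counts, Lyve1 2 and 1, and Pf4 0 and 1, too few for a difference to be detectable at this depth. Among red cell genes, the haemoglobin gene Hbb-bs (73 and 202 counts) was 3.62-fold lower (2.76 to 4.80), while Alas2 (56 and 43 counts) was not called (interval 0.659-fold to 1.52-fold lower). Cd4, listed as a lymphocyte marker, had 1567 and 861 counts while Cd3e and Cd3g had none in either library.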
